A study of Homo sapiens with 2 samples.

Results

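The SPARCL1 cells are the 109 day 220 cells of a culture of human astrocyte progenitors in which a score of SPARCL1, EDNRB, HLA-DRA and CA2 stood above the scores of the other cell classes. They are 109 of the 524 day 220 cells that passed the filters, and the series holds 10496 passing cells in all. SPARCL1 encodes a secreted glycoprotein by which astrocytes promote synapse formation, EDNRB the type B endothelin receptor, HLA-DRA the alpha chain of the HLA-DR antigen-presenting molecule, and CA2 a cytosolic carbonic anhydrase. In each day 220 cell with at least 1000 detected genes and at most 15% mitochondrial UMIs, log2(CPM + 10) was averaged over each set of genes and converted to a z-score over these cells. CPM is UMIs (counted molecules) per 1000000 UMIs of the cell, or of the summed cells of a group. Members were selected on these measured values: a cell was taken where the SPARCL1 score was the highest of 5 and at least 0.5. The other 4 scores stood for an OLIG1, SMOC1 and BCAN class (91 cells), a DLX5, DLX6-AS1 and NPY class (163 cells), a CHRNA1, RIC3 and GADD45G class (65 cells) and a COL1A1, TAGLN and ACTA2 class (56 cells), and 40 cells fell in none.

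The study asked how progenitors made from pluripotent cells relate to the subtypes of glioblastoma. H7, an established human embryonic stem cell line, was differentiated into astrocyte progenitors and exposed in sequence to LIF, BMP4 and FGF1. Cells were taken at day 220 and at day 160, and all groups here carry the same agents. For each day, 3 independently differentiated cultures were combined before loading on a droplet 3' single-cell chip, so that each day is 1 library whose cultures cannot be told apart. The protocol text of both libraries names day 160, whereas the title and time point of the second say day 220. No library had a replicate, so no difference below has a replicate check or a p-value. The intervals cover counting error alone.

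Astrocytes clear glutamate and potassium from the space around synapses, carry water and bicarbonate, and secrete lipoproteins. During development they descend from radial glia, with which they share many genes, and LIF and BMP signals promote their formation. HLA class II molecules show peptides to CD4+ T cells. Dendritic cells, B cells and macrophages carry them at all times, and other cells, astrocytes among them, can be brought to express them by interferon gamma through the coactivator CIITA.

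The day 220 SPARCL1 cells were deeper than the rest, with a median of 63932 UMIs (1861 to 148511), against 41855 in the other 415 passing cells. The median number of detected genes was 8722 in the SPARCL1 cells and 7449 in the others. Mitochondrial UMIs made up 9.42% of the summed counts of the SPARCL1 cells and 8.55% of those of the others, and ribosomal protein genes 10.6% and 13.0%. The library held 676 barcodes and shared 3 with the day 160 library, none of them among the SPARCL1 cells. A doublet caller marked 1 SPARCL1 cell and 5 other cells, none of which were removed.

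The 4 genes of the score are given as a description, because they helped to choose the cells. SPARCL1 (chr4:87473335-87531061, minus strand, GRCh38) was at 507 CPM in the summed SPARCL1 cells, against 56.5 CPM in the summed other cells. EDNRB was at 458 CPM in SPARCL1 cells and 65.5 CPM in other cells, and HLA-DRA at 488 CPM and 45.8 CPM in the same order. CA2 was at 126 CPM in SPARCL1 cells and 11.5 CPM in other cells. Within the SPARCL1 cells the per-cell SPARCL1 level ran from 0 to 3419 CPM around a median of 346.9 CPM, and 103 of 109 cells held a SPARCL1 UMI. EDNRB was the most even of the 4, with a UMI in 107 cells and a median of 400.5 CPM. HLA-DRA was the least even, with a UMI in 89 cells, a median of 114.6 CPM and a highest value of 4975 CPM. UMIs of all 4 genes were found in 71 of the SPARCL1 cells and in 20 of the other 415.

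**Figure D1:**
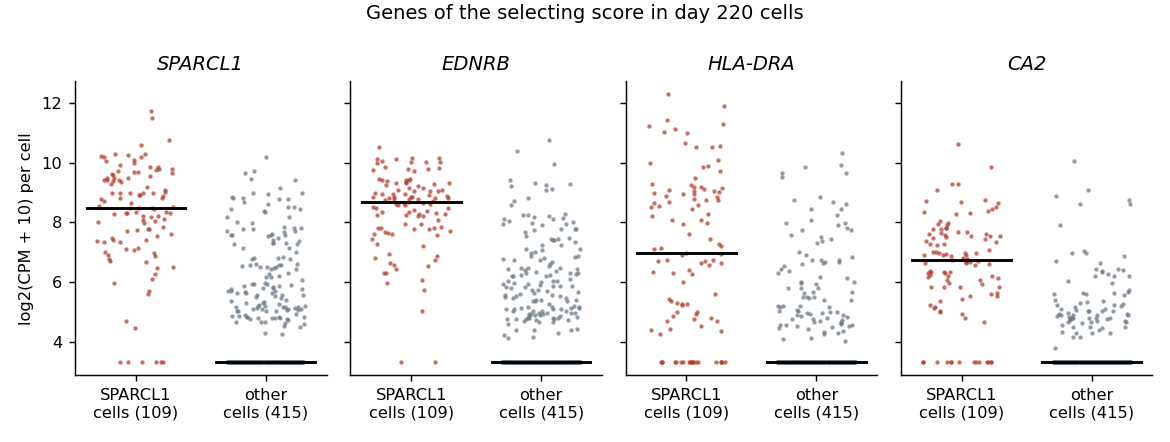
Level of the 4 genes of the selecting score in each day 220 cell, as log2(CPM + 10), for the 109 SPARCL1 cells and the 415 other passing cells. Points are cells and black lines are medians. HLA-DRA spreads most widely among the SPARCL1 cells, and some other cells reach SPARCL1-cell levels of each gene.

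The edge of the group was soft on one side and sparse on the other. The 3 lowest scores inside the group were 0.57, 0.60 and 0.67, and the 3 highest below the limit, among 10 cells whose SPARCL1 score led but did not reach 0.5, were 0.42, 0.23 and 0.17. A further 40 cells had a SPARCL1 score of at least 0.5 but a higher score of another kind, the COL1A1 score in 14, the OLIG1 score in 13 and the CHRNA1 score in 13. The DLX5 score led in none of these 40. Of the 109 SPARCL1 cells, 38 also had a CHRNA1 score of at least 0.5, 12 a COL1A1 score, 6 an OLIG1 score and 2 a DLX5 score. Of the 109, 13 lay within 0.25 of another score.

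The genes of the other scores were mostly low in the SPARCL1 cells. They too are given as a description. A cell was a member only where its SPARCL1 score was the highest of 5, so low values of these genes follow in part from the choice. Genes expressed with them are not independent of the choice either. SMOC1 was at 33.5 CPM in SPARCL1 cells and 407 CPM in the others, DLX5 at 7.39 and 179 CPM, and COL1A1 at 1.42 and 96.5 CPM in the same order. BCAN, which encodes the matrix proteoglycan brevican, was as high in SPARCL1 cells (294 CPM) as in the others (270 CPM), and RIC3, a chaperone of acetylcholine receptors, stood at 139 CPM in SPARCL1 cells and 97.4 CPM in the others.

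Most astrocyte genes that the score did not use were higher in the SPARCL1 cells, but several that mark mature astrocytes were near 0. A gene of a list was counted as measured at 5 CPM or more in at least 1 of the groups compared, and as higher or lower where log2 of the ratio of CPM + 1 passed 1, a 2-fold difference. Of 26 listed astrocyte genes 20 were measured, 11 were higher in SPARCL1 cells and 1 was lower, and their median log2 ratio was 1.31. Over all 11922 genes measured this way, 3.05% were higher, 4.50% were lower and the median log2 ratio was -0.09.

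The transporters led the astrocyte list. SLC1A3, the glutamate transporter GLAST, was at 718 CPM in SPARCL1 cells and 179 CPM in the others, a 4.02-fold difference (3.85 to 4.20). Per cell its median was 692 CPM in SPARCL1 cells (345 to 1056 between the quartiles) and 40.2 CPM in the others. ATP1B2, a beta subunit of the sodium pump, was at 274 CPM in SPARCL1 cells and 56.8 CPM in the others (4.83-fold, 4.48 to 5.21). Both genes were lower in each of the other 4 classes than in SPARCL1 cells, SLC1A3 at 113 to 228 CPM and ATP1B2 at 26.8 to 80.1 CPM. KCNJ10, the potassium channel Kir4.1, was at 22.7 CPM in SPARCL1 cells and 5.91 CPM in the others.

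Secreted and cytoplasmic astrocyte genes were also higher. CLU, the lipoprotein clusterin, was at 2960 CPM in SPARCL1 cells and 989 CPM in the others, and APOE at 371 and 128 CPM in the same order. S100B, a calcium-binding protein, was at 1047 CPM in SPARCL1 cells and 390 CPM in the others, and a UMI of it was found in all 109 SPARCL1 cells. GFAP, the intermediate filament gene of astrocytes, was at 235 CPM in SPARCL1 cells and 97.8 CPM in the others (2.40-fold, 2.25 to 2.57). GFAP did not set these cells apart from the OLIG1 class, where it was at 199 CPM, and its per-cell level in SPARCL1 cells ran from 0 to 2934 CPM around a median of 91.7 CPM.

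Other astrocyte genes went against the label. AQP4, the water channel of astrocyte endfeet, was at 4.69 CPM in SPARCL1 cells and 1.11 CPM in the others, with a UMI in 10 of the 109 SPARCL1 cells. ALDH1L1, ALDOC and GJB6 were at 0.568, 0.142 and 0.142 CPM in SPARCL1 cells and at 0.211, 0.475 and 0 CPM in the others. GJA1, which encodes the gap junction protein connexin 43, was lower in SPARCL1 cells, at 136 CPM against 248 CPM in the others, and ID3, a target of BMP signalling, was at 1.42 CPM against 7.87 CPM. SOX9 (161 CPM in SPARCL1 cells, 177 CPM in the others) and FGFR3 (5.68 and 5.44 CPM) differed little. Since these markers go against a mature astrocyte label, the cells are called SPARCL1 cells here.

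**Figure D2:**
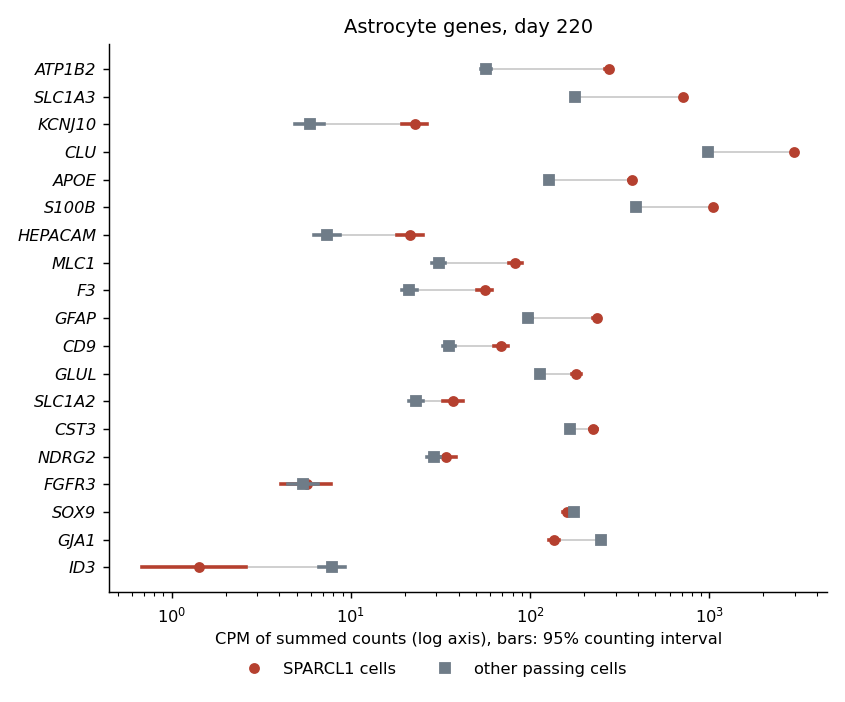
Level of 19 measured genes of the astrocyte list in the summed SPARCL1 cells (circles) and the summed other passing day 220 cells (squares), in CPM on a log axis with 95% counting intervals. ATP1B2 and SLC1A3 differ most, and GJA1 and ID3 are lower in the SPARCL1 cells.

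The astrocyte level was spread over nearly all the cells. The astrocyte list summed to a median of 6574 CPM per SPARCL1 cell (839 to 12230 CPM) and to 2166 CPM per other cell (0 to 9357 CPM). The OLIG1 class came next with a median of 3210 CPM. With every cell thinned to 5000 UMIs, which left 105 SPARCL1 cells and 389 others after 4 and 26 shallower cells were set aside, SLC1A3 was found in 92.4% of SPARCL1 cells (85.5 to 96.7, exact binomial) and 36.2% of the others (31.5 to 41.2). The DLX5 class, whose genes are those of interneurons and whose median depth was 34817 UMIs, still had SLC1A3 in 23.2% of thinned cells. All cells in these shares held the same number of UMIs. GFAP was found in 45.7% of thinned SPARCL1 cells (36.0 to 55.7), 22.1% of the others and 46.6% of the OLIG1 class.

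Genes for moving water, ions and bicarbonate stood out as a group. Of 13 listed, 9 were measured, 8 were higher in SPARCL1 cells and none was lower, with a median log2 ratio of 1.42, though 8 of the 13 are also on the astrocyte list. SLC4A4, a sodium bicarbonate cotransporter, was at 38.1 CPM in SPARCL1 cells and 7.44 CPM in the others (5.11-fold, 4.15 to 6.31). KCNN3, a calcium-activated potassium channel, was at 59.8 CPM in SPARCL1 cells and 26.4 CPM in the others. MLC1 and its partner HEPACAM, membrane proteins of astrocyte endfeet, were at 82.8 and 21.4 CPM in SPARCL1 cells and at 30.9 and 7.39 CPM in the others.

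Among carbonic anhydrases and acid-base transporters the picture was mixed. Of 10 measured genes 3 were higher and 1 was lower in SPARCL1 cells (median log2 ratio 0.05). CA12, a membrane-bound enzyme, was at 86.3 CPM in SPARCL1 cells and 19.5 CPM in the others. CA14, another membrane-bound enzyme, went the other way, at 20.2 CPM in SPARCL1 cells and 55.1 CPM in the others. The endothelin ligand genes were near 0 around the receptor: EDN1 was at 0 CPM in SPARCL1 cells and 2.01 CPM in the others, where the COL1A1 class held 7.22 CPM, and EDN3 was at 0 CPM in both. SPARC, the founding member of the protein family of SPARCL1, was at 880 CPM in SPARCL1 cells and 606 CPM in the others.

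Radial glia genes were higher in part. Of 16 measured genes 6 were higher and none was lower in SPARCL1 cells, with a median log2 ratio of 0.80. HOPX, a marker of outer radial glia, was at 167 CPM in SPARCL1 cells and 56.7 CPM in the others, and a UMI of it was found in 43.1% of SPARCL1 cells and 40.7% of the OLIG1 class. FAM107A was at 53.8 CPM in SPARCL1 cells and 16.2 CPM in the others. VIM, the intermediate filament of glial progenitors, was at a per-cell median of 10566 CPM in SPARCL1 cells and 4846 CPM in the others, with 11055 CPM in the COL1A1 class. SOX2, NES and PTN differed by less than 2-fold.

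Of the signalling lists, those of Notch, FGF and LIF each held a few higher genes. The Notch effectors HES1 and HES5 were at 85.1 and 68.5 CPM in SPARCL1 cells and at 31.9 and 28.6 CPM in the others, and 2 of 11 measured Notch genes were higher. Of 13 FGF and ERK targets 3 were higher, all of them Sprouty genes, which encode feedback inhibitors of receptor signalling. SPRY1 was at 167 CPM in SPARCL1 cells and 61.1 CPM in the others. Of 10 genes of the LIF and STAT3 list 2 were higher, GFAP and SERPINA3, while STAT3 itself was at 169 CPM in SPARCL1 cells and 151 CPM in the others. Of 8 BMP and ID genes none was higher and 2 were lower, ID3 and BAMBI. BAMBI, a decoy receptor, was at 0.710 CPM in SPARCL1 cells and 6.49 CPM in the others.

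Forebrain transcription factors were among the higher genes. EMX2 was at 45.9 CPM in SPARCL1 cells and 12.9 CPM in the others, LHX2 at 199 and 87.4 CPM, and SIX3 at 36.4 and 17.1 CPM in the same order. HOXB2, a hindbrain gene, was at 3.41 CPM in SPARCL1 cells and 11.4 CPM in the others. Of the 8 measured regional genes 4 were higher and 1 was lower.

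The HLA class II genes were the group with the largest ratios beyond the score itself. All 9 measured members of the list, which leaves out HLA-DRA, were higher in SPARCL1 cells, by log2 ratios of 2.38 to 3.51 around a median of 2.90. They took 8 of the 15 highest places among the 10023 genes at 10 CPM or more in either group. Of those genes 301 (3.00%) passed the 2-fold limit upward and 369 (3.68%) downward. HLA-DPA1 (chr6:33064569-33080775, minus strand), the alpha chain of HLA-DP, was at 222 CPM in SPARCL1 cells and 18.6 CPM in the others (11.9-fold, 10.6 to 13.4). HLA-DRB1, the main beta chain partner of HLA-DRA, was at 202 CPM in SPARCL1 cells and 20.7 CPM in the others (9.76-fold, 8.72 to 10.9). HLA-DRB5 was at 60.5 CPM in SPARCL1 cells and 4.96 CPM in the others, and its reads may be shared with HLA-DRB1, a near-identical copy.

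The proteins that load and chaperone class II molecules followed the chains. CD74, the invariant chain that guides class II molecules to the endosome, was at 219 CPM in SPARCL1 cells and 32.9 CPM in the others (6.65-fold, 6.06 to 7.31). HLA-DMA and HLA-DMB, which exchange the peptide, were at 62.3 and 16.9 CPM in SPARCL1 cells and at 11.1 and 1.69 CPM in the others. HLA-DQA1 and HLA-DQB1 were at 22.6 and 38.5 CPM in SPARCL1 cells and at 2.16 and 4.33 CPM in the others. The remaining members were low: HLA-DOA was at 2.56 CPM in SPARCL1 cells and 0.634 CPM in the others, HLA-DOB at 0.142 and 0 CPM, and CTSS, the protease that trims the invariant chain in macrophages, at 1.28 and 2.16 CPM in the same order.

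Because HLA-DRA helped to choose the cells, genes expressed with it are not independent of the choice. With the score built from SPARCL1, EDNRB and CA2 alone, 109 cells were again chosen, 100 of them the same, and the ratios were smaller. HLA-DRA was then 3.98-fold higher (3.74 to 4.23), HLA-DPA1 4.98-fold, HLA-DRB1 4.03-fold and CD74 3.38-fold. All 9 measured class II genes stayed at least 2-fold higher under that choice.

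The class II level was concentrated in some of the cells. The 12 listed genes summed to a median of 280 CPM per SPARCL1 cell, with quartiles of 67.8 and 873 CPM and a highest value of 7657 CPM, and to a median of 18.7 CPM per other cell. The 11 SPARCL1 cells with the highest class II level held 57.9% of the 6680 class II UMIs of the group, and 8 SPARCL1 cells held none. Of the 109 SPARCL1 cells 72 lay above 124 CPM, the level that 1 in 10 other cells passed, and 24 other cells lay above the median SPARCL1 cell. With HLA-DRA left out of the score the medians were 193 CPM per chosen cell and 19.9 CPM per other cell. Thinned to 5000 UMIs, CD74 was found in 36.2% of SPARCL1 cells (27.0 to 46.1), 7.20% of the others and 5.81% of the DLX5 class, and HLA-DRB1 in 30.5% (21.9 to 40.2), 3.34% and 0.645%.

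**Figure D3:**
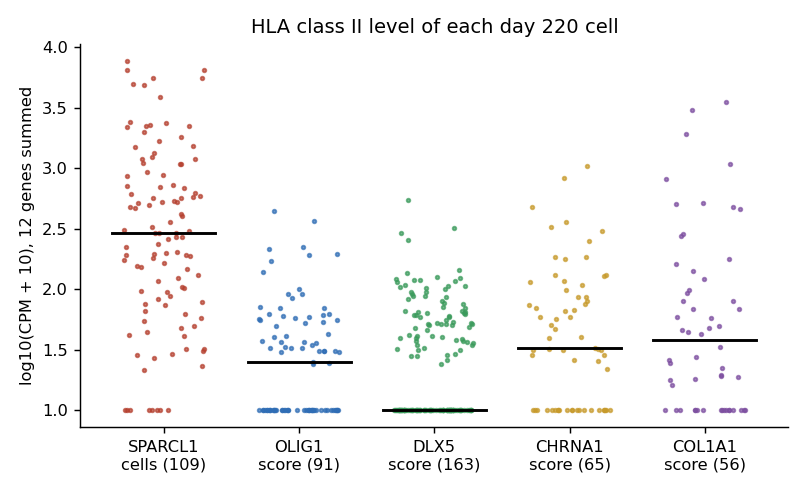
Summed level of the 12 listed HLA class II genes (HLA-DRA left out) in each day 220 cell, as log10(CPM + 10), by score class. Points are cells and black lines are medians. SPARCL1 cells have the highest median and the widest spread, and single cells of the CHRNA1 and COL1A1 classes reach the same range.

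The class with the next highest class II level was the COL1A1 class. The 12 genes summed to 949 CPM in SPARCL1 cells, against 267 CPM in the COL1A1 class, 99.5 CPM in the CHRNA1 class, 37.7 CPM in the DLX5 class and 34.1 CPM in the OLIG1 class. HLA-DPA1 was at 222 CPM in SPARCL1 cells and at 49.3 CPM in the COL1A1 class, 20.4 CPM in the CHRNA1 class, 3.27 CPM in the OLIG1 class and 3.13 CPM in the DLX5 class. HLA-DQA1, at 22.6 CPM in SPARCL1 cells, had no UMI in the OLIG1, DLX5 and CHRNA1 classes, which made it at least 32.2-fold, 43.3-fold and 23.7-fold higher than a floor of 3 UMIs over each class.

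**Figure D4:**
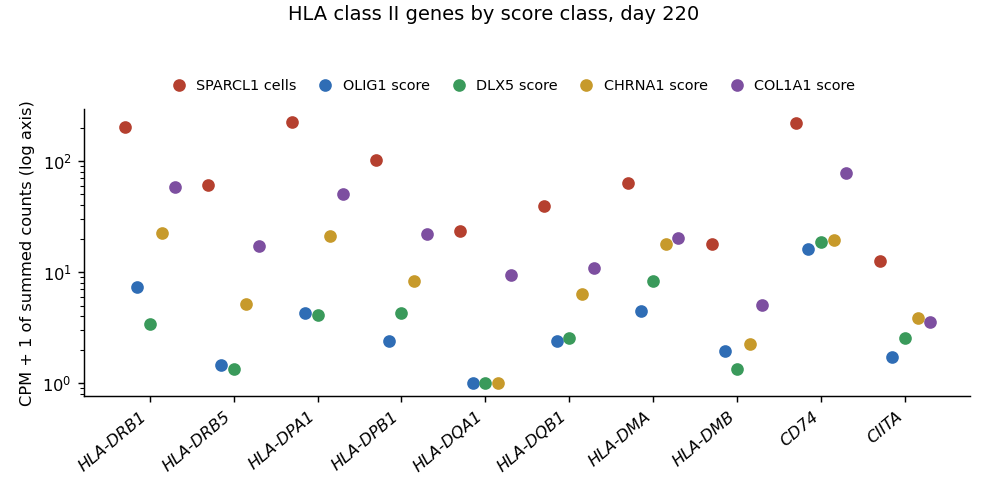
Level of the 9 measured HLA class II genes and of CIITA in the summed cells of each day 220 score class, as CPM + 1 on a log axis. SPARCL1 cells are highest for each of the 10 genes, and the COL1A1 class is next for the 9 class II genes.

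Of the class II regulators CIITA alone passed 2-fold. CIITA (chr16:10866222-10943021, plus strand), the coactivator on which class II transcription depends, was at 11.6 CPM in SPARCL1 cells and 2.64 CPM in the others (4.41-fold, 3.07 to 6.40), with a UMI in 31 of 109 SPARCL1 cells and 25 of 415 others. The DNA-binding factors that recruit it differed by less than 2-fold. RFX5 was at 12.6 CPM in SPARCL1 cells and 13.8 CPM in the others, RFXANK at 51.8 and 51.1 CPM, NFYB at 29.1 and 30.0 CPM, and CREB1 at 78.8 and 102 CPM in the same order. Of 8 measured regulators 1 was higher and none lower, with a median log2 ratio of -0.15. Over the 109 SPARCL1 cells the class II sum went with HLA-DRA (Spearman's rho 0.85) and CIITA (0.58) more closely than with the astrocyte sum (0.17). These are descriptions over cells of 1 library that also differ in depth.

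The promoters of class II genes share short elements that RFX, CREB and NF-Y bind. The promoters of 4 of the higher genes are shown. Each holds GATTGG or its complement, the core letters of 1 such element, the Y box, and also the letters CTGATGA described below. HLA-DPB1 and HLA-DQB1, which were higher too, hold GATTGG or its complement without CTGATGA and are not shown. The sequences are the 150 bases before the RefSeq start on GRCh38.p14, minus strand, from 5' to 3'. Capitals mark GATTGG or its complement CCAATC, the core of the Y box that NF-Y binds, and CTGATGA, letters picked from these same promoters after they had been read. The marked stretches do not overlap. Counted from the start, GATTGG and CTGATGA begin at -47 and -74 in HLA-DRB1, -91 and -118 in HLA-DRB5, and -80 and -108 in HLA-DMA. In HLA-DMB the match is on the other strand (CCAATC) at -22, farther from CTGATGA at -83. Whether it acts as a Y box was not tested. The windows are chr6:32589849-32589998 for HLA-DRB1, chr6:32530288-32530437 for HLA-DRB5, chr6:32953098-32953247 for HLA-DMA and chr6:32941029-32941178 for HLA-DMB.
HLA-DRB1: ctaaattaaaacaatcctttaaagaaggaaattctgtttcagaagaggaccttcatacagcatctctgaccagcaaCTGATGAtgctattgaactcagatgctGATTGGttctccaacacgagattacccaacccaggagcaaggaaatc
HLA-DRB5: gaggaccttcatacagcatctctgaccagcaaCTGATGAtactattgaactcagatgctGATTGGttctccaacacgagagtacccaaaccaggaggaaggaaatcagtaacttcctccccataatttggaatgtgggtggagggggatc
HLA-DMA: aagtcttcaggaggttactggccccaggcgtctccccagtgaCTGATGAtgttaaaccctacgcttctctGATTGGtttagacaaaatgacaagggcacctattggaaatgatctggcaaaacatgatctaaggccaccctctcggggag
HLA-DMB: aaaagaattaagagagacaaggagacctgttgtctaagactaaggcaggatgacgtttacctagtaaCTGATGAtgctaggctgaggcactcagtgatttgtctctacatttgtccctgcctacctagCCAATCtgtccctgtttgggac
In windows of 300 bases (250 before the start and 50 after, both strands), GATTGG was found in 8 of the 11 class II genes that had an entry and in 15.1% of all 35116 promoters. CTGATGA was found in 5 of the 11, each also with GATTGG, and in 3.28% of all promoters, but since it was picked from these promoters its count is a description and no support. TAGCAAC, a core of the X box, was found in none of the 11 and in 2.85% of all promoters. Only this exact string was searched, so the count does not show that these promoters lack an X box. CAGCAAC, which differs in the first letter, stands in the HLA-DRB1 and HLA-DRB5 sequences above. HLA-DPA1, HLA-DQA1 and CD74 held none of the 3 exact strings in these windows, which does not show that they lack the elements. The shorter ATTGG or its complement CCAAT stood in the HLA-DQA1 and CD74 windows. CAGCAAC stood in a window of HLA-DPA1.

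The genes of class I presentation and of the interferon response differed less. Of 12 measured class I genes 1 was higher, HLA-E at 51.7 CPM in SPARCL1 cells and 24.2 CPM in the others, and none was lower (median log2 ratio 0.43). B2M, the common light chain, was at 2290 CPM in SPARCL1 cells and 1470 CPM in the others. Of 15 measured interferon response genes 2 were higher, IFIT1 and IFIT3, both under 20 CPM, and none was lower (median 0.46). CXCL10, a chemokine that interferon gamma induces, had no UMI in the SPARCL1 cells. It had none in the other day 220 cells or in the day 160 cells either, so it does not set the SPARCL1 cells apart.

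Markers of microglia, macrophages and endothelial cells were near 0, while some choroid plexus and neural crest genes were not. The 14 microglia and macrophage genes summed to 2.98 CPM in SPARCL1 cells and 2.90 CPM in the others, with none at 5 CPM, and 9 of them, AIF1, CX3CR1, TYROBP, C1QA, C1QB, C1QC, TREM2, ITGAM and SPI1, had no UMI in SPARCL1 cells. PTPRC, the leukocyte antigen CD45, was at 0.142 CPM. The 8 endothelial genes summed to 1.14 CPM in SPARCL1 cells and 2.01 CPM in the others, and PECAM1, CDH5, CLDN5, FLT1 and TEK were at 0. Of the choroid plexus genes, summed at 54.3 CPM in SPARCL1 cells and 45.5 CPM in the others, TTR and KL were at 0 in SPARCL1 cells and 1 was at 5 CPM or more. The neural crest genes summed to 20.9 CPM in SPARCL1 cells, with 2 at 5 CPM or more, and to 17.2 CPM in the others.

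The other 7 of the 15 highest genes lay outside the class II group, and they were of several kinds. SERPINA3, a secreted protease inhibitor of reactive astrocytes, was at 23.0 CPM in SPARCL1 cells and 1.58 CPM in the others (14.5-fold, 9.79 to 22.2), with a UMI in 29 of the 109 cells. SLC7A11, the cystine and glutamate exchanger, was at 73.0 CPM in SPARCL1 cells and 10.9 CPM in the others, and AKR1C3, an aldo-keto reductase, at 41.3 and 4.49 CPM in the same order. SPP1, the secreted phosphoprotein osteopontin, was at 274 CPM in SPARCL1 cells and 45.5 CPM in the others (6.04-fold, 5.57 to 6.55), and at 109 CPM in the COL1A1 class. CTSH, a lysosomal protease, was at 51.8 CPM in SPARCL1 cells and 7.29 CPM in the others. CALB1, the calcium buffer calbindin, was at 34.2 CPM in SPARCL1 cells and 5.02 CPM in the others. AL592295.3, a gene without a described role, was at 18.9 CPM in SPARCL1 cells and 2.11 CPM in the others.

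Reactive astrocyte genes and metallothioneins were higher in part. Of 8 measured reactive genes 3 were higher and 1 was lower (median log2 ratio 0.78). VCAM1, an adhesion molecule, was at 31.0 CPM in SPARCL1 cells and 9.03 CPM in the others, and CD44, the hyaluronan receptor, at 329 and 138 CPM in the same order. S100A10 was lower, at 67.9 CPM in SPARCL1 cells and 183 CPM in the others. CHI3L1 and LCN2 had no UMI in SPARCL1 cells and C3 had 0.142 CPM, but LCN2 had no UMI in the other day 220 cells either. Of 4 metallothioneins, which bind zinc and copper, 3 were higher (median 1.41), MT2A at 392 CPM in SPARCL1 cells and 113 CPM in the others.

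The remaining lists held at most 4 genes each past 2-fold, where 3.05% of all measured genes were higher and 4.50% lower. Of the listed genes, 3 of the glutamate list and 2 of the lipid list are also on the astrocyte list. Of 8 measured glutamate genes 3 were higher and none lower (median log2 ratio 0.70), and of 10 lipoprotein and lipid genes 3 were higher and none lower (median 0.61), among them PLTP, a phospholipid transfer protein, at 147 CPM in SPARCL1 cells and 64.2 CPM in the others. Of 15 gliogenic transcription factors 4 were higher and none lower (median 0.04), while NFIA, a factor that starts gliogenesis, was at 83.5 CPM in SPARCL1 cells and 80.1 CPM in the others. Of 12 matrix genes 1 was higher and 2 were lower (median 0.12), and of 4 genes of the SPARC family 1 was lower (median 0.45). None of 6 complement genes (median 0.23), 9 immediate early genes (median 0.40) and 7 intermediate precursor genes (median -0.48) passed 2-fold. Of 5 oligodendrocyte lineage genes 1 was lower (median 0.17), and of 3 ependymal genes 1 was higher (median 0.52).

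Of the glioblastoma state lists, the astrocyte-like one held the most higher genes. Of its 30 measured genes 15 were higher and none was lower in SPARCL1 cells (median log2 ratio 1.03), but 12 of the 35 listed are also on the astrocyte list. PMP2, a fatty acid binding protein, was at 221 CPM in SPARCL1 cells and 72.7 CPM in the others. Of 39 measured genes of the first mesenchymal-like list 7 were higher and 2 lower (median 0.28), and of 14 oligodendrocyte-precursor-like genes 3 were higher and 1 lower (median 0.23). Of 30 genes of the first neural-progenitor-like list none was higher and 10 were lower (median -0.65), among them DCX, a microtubule protein of migrating neurons, at 28.7 CPM in SPARCL1 cells and 167 CPM in the others.

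Genes of the neuronal lineage were low in SPARCL1 cells. Of 8 measured genes of neurons at large 4 were lower and none higher (median log2 ratio -0.85), and of 8 measured interneuron genes 7 were lower and none higher (median -2.24). GAD2, a GABA-synthesising enzyme, was at 8.52 CPM in SPARCL1 cells and 101 CPM in the others, and DLX2, a transcription factor of interneuron precursors, at 30.1 and 198 CPM in the same order. KIRREL3, an adhesion molecule, had the lowest ratio of all, with 6 UMIs in SPARCL1 cells (0.852 CPM) and 124 CPM in the others, 145-fold lower (66.5 to 396). TAC3, the neurokinin B precursor, was at 2.27 CPM in SPARCL1 cells and 119 CPM in the others. NRXN3, a synaptic adhesion molecule, was at 74.0 CPM in SPARCL1 cells and 1298 CPM in the others, and PEG10, a gene derived from a retrotransposon, at 114 and 1376 CPM in the same order. Both were highest in the DLX5 class, at 3530 CPM for NRXN3 and 2937 CPM for PEG10. The OLIG1 class was low in these genes too. Its per-cell means were 0.82 CPM for KIRREL3, 20.3 CPM for NRXN3 and 91.2 CPM for PEG10. Those of SPARCL1 cells were 0.63, 74.7 and 143 CPM. The interneuron list had a median log2 ratio of -0.25 against the OLIG1 class and -0.15 against the COL1A1 class.

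Genes of contractile and matrix cells were lower as well. Of 7 measured genes 3 were lower and none was higher (median log2 ratio -0.93), the scoring genes left out. ANKRD1, a muscle and mechanical stress gene, was at 0.852 CPM in SPARCL1 cells and 56.3 CPM in the others, with 221 CPM in the COL1A1 class. ACTG2, a smooth muscle actin, had no UMI in SPARCL1 cells and 18.2 CPM in the others, at least 42.6-fold lower by the floor of 3 UMIs over the group. IGFBP3, which binds insulin-like growth factors, was at 0.284 CPM in SPARCL1 cells and 15.9 CPM in the others.

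Cell division genes were lower in the summed counts, and the difference lay in a minority of cells. Of 16 measured genes 10 were lower and none was higher (median log2 ratio -1.44). The COL1A1 class was about as low. The list summed to 221 CPM in SPARCL1 cells and 248 CPM in that class, with a median log2 ratio of -0.22 between them. It summed to 412 CPM in the OLIG1 class, 535 CPM in the DLX5 class, 660 CPM in the CHRNA1 class and 1479 CPM in the cells of no class. TOP2A, a topoisomerase of dividing cells, was at 7.95 CPM in SPARCL1 cells and 65.6 CPM in the others (8.25-fold lower, 6.31 to 10.98). PCNA, which is also used in DNA repair, was at 55.1 CPM in SPARCL1 cells and 45.3 CPM in the others. The per-cell median of the list was 105 CPM in SPARCL1 cells and 81.0 CPM in the others, with highest values of 6711 and 11133 CPM. Thinned to 5000 UMIs, no SPARCL1 cell of 105 held both MKI67 and TOP2A, and 14 of 389 others (3.60%) did. The count of 0 allows a share of up to 2.86% with UMIs of both at this depth (3.45% by the exact binomial limit) and sets no limit on dividing cells. At full depth 3.67% of SPARCL1 cells and 6.02% of the others held both.

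Against the OLIG1 class, which had the next highest astrocyte sum, class II had the highest list median. All 9 measured class II genes were higher in SPARCL1 cells (median log2 ratio 4.56), where 4.51% of all measured genes were higher and 4.36% lower. CCL2, a chemokine that draws monocytes, was at 289 CPM in SPARCL1 cells and 7.47 CPM in the OLIG1 class (38.7-fold, 27.3 to 56.7). Of 21 astrocyte genes 7 were higher and 2 lower (median 0.69), of 39 genes of the first mesenchymal-like list 11 were higher and 1 lower (median 0.53), and of 4 metallothioneins 3 were higher (median 1.82). Of 16 cell division genes 8 were lower and none higher. SLC1A3 was at 718 CPM in SPARCL1 cells and 155 CPM in the OLIG1 class. SOX9 was at 161 CPM in SPARCL1 cells and 273 CPM in the OLIG1 class, and ID3 at 1.42 CPM and 26.4 CPM. GALR1 and OPRD1, a galanin and an opioid receptor, were at 0.568 and 1.28 CPM in SPARCL1 cells and at 25.7 and 34.1 CPM in the OLIG1 class.

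Against the COL1A1 class, which had the next highest class II level, both glial and contractile genes differed. Of 19 astrocyte genes 12 were higher and 1 lower in SPARCL1 cells (median log2 ratio 1.27), and of 9 contractile and mesenchymal genes 8 were lower and none higher (median -2.25), where 4.02% of all measured genes were higher and 4.36% lower. All 9 class II genes were higher here too, with a smaller median of 1.83. LMO2, a transcriptional adaptor, was at 305 CPM in SPARCL1 cells and 40.4 CPM in the COL1A1 class. ARHGAP24, an activator of Rac GTP hydrolysis, was at 14.6 CPM in SPARCL1 cells and had no UMI in the COL1A1 class, at least 23.0-fold higher. ANKRD1 was at 0.852 CPM in SPARCL1 cells and 221 CPM in the COL1A1 class. CD44 was at 329 CPM in SPARCL1 cells and 293 CPM in the COL1A1 class.

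The day 160 library, scored on its own cells by the same rule, gave 2167 such cells of 9972 (21.7%, 20.9 to 22.6), where day 220 had 20.8% (17.4 to 24.5). Each library was scored against its own means and SDs, so these shares are not on a common scale. Scored with the means and SDs of day 220, 2351 cells were chosen, and 1815 with cells thinned to 5000 UMIs. Of the 9972 cells the chosen ones had a median of 14946 UMIs and the others 8960. These cells are a second sample of the same comparison, but the same 5 scores chose them. Genes tied to the genes of those scores, whether higher or lower, are therefore not independent of the choice. Of 8435 genes counted in both comparisons, 206 were at least 2-fold higher in the chosen cells at day 220 and 222 at day 160, and 109 were in both, which is 52.9% of the day 220 genes and 49.1% of the day 160 genes. Of the lower genes 236 were counted at day 220 and 274 at day 160, with 144 in both (61.0% and 52.6%). Among all 8991 genes of the day 160 comparison 3.03% were higher and 4.24% lower.

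The class II and astrocyte groups differed in the same direction at day 160. All 10 class II genes measured there were higher in the chosen cells (median log2 ratio 2.61), HLA-DPA1 at 543 CPM in the chosen cells and 72.4 CPM in the others, and CIITA at 23.3 and 4.80 CPM in the same order. Of 22 astrocyte genes 15 were higher and 1 was lower (median 1.29), against 3.06% and 4.22% of all measured genes. GJA1 and ID3 were below the other cells at day 160 too, at 76.3 and 5.17 CPM in the chosen cells and at 152 and 25.8 CPM in the others. SERPINA3 was at 138 CPM in the chosen cells and 24.3 CPM in the others. FGFR3, at 5.68 CPM in SPARCL1 cells and 5.44 CPM in the others at day 220, was at 40.1 CPM in the chosen day 160 cells and 12.6 CPM in the others.

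Other genes did not carry over. The 3 Sprouty genes passed 2-fold at day 220 and none of the FGF and ERK targets did so upward at day 160. SPRY1 was at 6.99 CPM in the chosen day 160 cells and 5.66 CPM in the others, and SPRY4 at 4.58 and 9.27 CPM. KIRREL3 and NRXN3, far lower in the day 220 SPARCL1 cells, had log2 ratios of -0.80 and -0.69 at day 160. Past 2-fold in opposite directions were 3 genes: ZIC1, at 11.6 CPM in SPARCL1 cells and 4.12 CPM in the others at day 220 and at 16.1 and 38.1 CPM at day 160, PCP4, at 28.97 and 11.2 CPM and at 10.99 and 28.2 CPM, and CD38, at 4.69 and 10.7 CPM and at 12.2 and 4.69 CPM. The difference between the days was not tested.

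**Figure D5:**
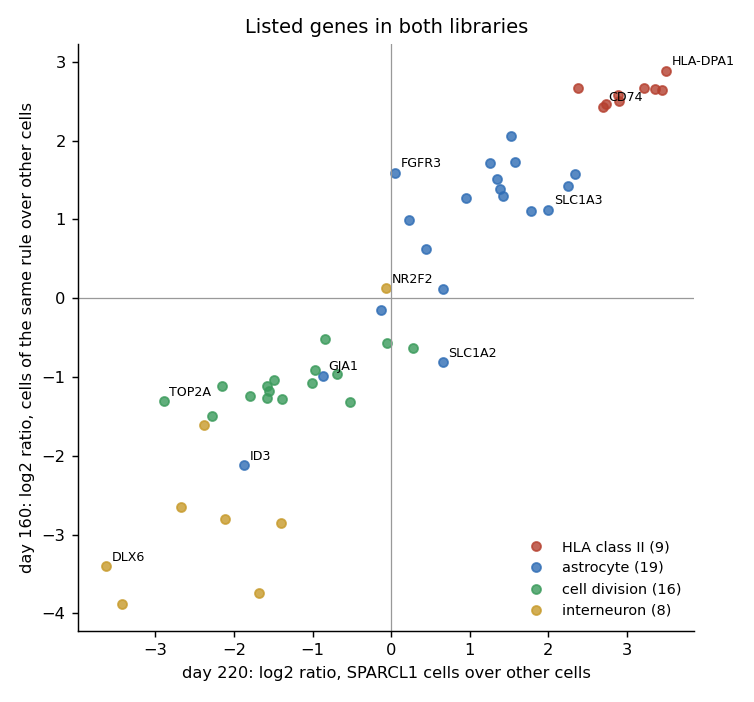
Log2 ratio of CPM + 1 between the chosen cells and the other passing cells at day 220 (x axis) and at day 160 (y axis), for the genes of 4 lists measured in both libraries. The 9 class II genes are high in both, cell division and interneuron genes are mostly low in both, and GJA1 and ID3 are low in both.

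Set directly against the chosen day 160 cells, the day 220 SPARCL1 cells differed in many genes, as did the other cells of the libraries. Day and library cannot be told apart here, and the median depth of the libraries was 46438 UMIs at day 220 and 10457.5 at day 160. Of 9971 genes, 2219 (22.3%) passed the 2-fold limit upward in the day 220 SPARCL1 cells and 593 (5.95%) downward. The ratio went with the intron length of the gene: its median log2 was -0.35 for genes with 1 to 10 kb of intron and 2.48 for genes with over 300 kb, of which 87.6% were higher. With each gene set against genes of similar intron length, 1089 were higher. Genes without an intron length are left out there, and neither the share over all genes nor the number lower is given for that setting. PTCHD1-AS, a long antisense gene, had the highest ratio, at 437 CPM in SPARCL1 cells and 0.375 CPM in the chosen day 160 cells, and the other cells of each day stood at 387 and 0.219 CPM.

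Class II, cell division and some progenitor genes were lower at day 220 in the SPARCL1 cells, and the other cells of the libraries also had lower values at day 220. The difference between the groups was not tested. Of 10 measured class II genes 9 were lower (median log2 ratio -1.31), where 6.22% of all measured genes were lower. Once set against the median of genes of similar intron length, 9 class II genes had a median of -0.98, and 4 of them were lower. The 6.22% does not apply to that setting and no share over all genes is given for it, so this count stands without a comparison. CD74 was at 219 CPM in SPARCL1 cells and 726 CPM in the chosen day 160 cells. The 12 class II genes summed to 949 CPM in SPARCL1 cells and 2562 CPM in the chosen day 160 cells, and to 108 CPM and 409 CPM in the other cells of day 220 and day 160. The per-cell class II median was 280 CPM in SPARCL1 cells and 1376 CPM in the chosen day 160 cells. GFAP was at 235 CPM in SPARCL1 cells and 1084 CPM at day 160, and HES5 at 68.5 and 462.2 CPM in the same order. In the other cells GFAP was at 97.8 CPM at day 220 and 328 CPM at day 160, and HES5 at 28.6 and 273 CPM. Of 16 cell division genes 13 were lower (median -2.20), and the list summed to 221 CPM in SPARCL1 cells and 921 CPM in the chosen day 160 cells, and to 509 and 1985 CPM in the other cells of the same days. CRABP1, a carrier of retinoic acid, had no UMI in SPARCL1 cells and 90.04 CPM in the chosen day 160 cells, at least 211-fold lower. In the other cells of the libraries CRABP1 was at 0.581 CPM at day 220 and 812 CPM at day 160.

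FGF and ERK targets were higher at day 220, as were 4 of 23 measured astrocyte genes, while 8 of the 23 were lower. Of 13 FGF and ERK targets 10 were higher and none lower (median log2 ratio 2.05), where 22.9% of all measured genes were higher. SPRY1 was at 167 CPM in SPARCL1 cells and 6.99 CPM in the chosen day 160 cells, and at 61.1 and 5.66 CPM in the other cells of the same days. S100B was at 1047 CPM in SPARCL1 cells and 296 CPM at day 160, and APOE at 371 and 53.6 CPM in the same order. PTGDS, a prostaglandin D synthase, was at 391 CPM in SPARCL1 cells and 11.7 CPM in the chosen day 160 cells, with 351 and 9.25 CPM in the other cells. The astrocyte list as a whole leaned downward, although 4 of its 23 genes passed 2-fold upward. Its 8 lower genes compare with 6.22% of all measured genes lower, and its median was -0.59 where that of all measured genes was 0.15. Set against genes of similar intron length, 22 astrocyte genes had a median of -0.34, 4 of them higher and 6 lower. No share over all genes is given for that setting.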

How the data were processed

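Of 2 droplet libraries (H7-derived astrocyte progenitors, day 220 and day 160) the deposited files held raw UMI counts for 36601 genes, with no normalization by the authors. The header of the matrix names Cell Ranger 7.0.1. The submitters' processing notes list Cell Ranger 7, Seurat 4 and hg38. Intron counting, strand use, the annotation release and the barcode filter: not given in the sources used here. Antisense and overlapping pairs (DLX6-AS1, PTCHD1-AS) are uncertain for that reason.

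Cells with at least 1000 genes and at most 15% mitochondrial UMIs were scored by the rule in the report. Counts were summed per class and set per 1000000 UMIs (CPM). Ratios are log2 of (CPM + 1) over (CPM + 1), counted genes had at least 10 CPM in a group (5 for lists), and 2-fold counted as different. With 1 library a day no test was run. Intervals are 95%: exact Poisson, conditional binomial for ratios, Clopper-Pearson for shares. A count of 0 was given a floor of 3. Cells were thinned to 5000 UMIs for shares. Doublets were called with Scrublet (expected rate 0.06) and kept. Intron lengths and gene positions came from GENCODE 29 (GRCh38), promoters from RefSeq on GRCh38.p14. Software was Python 3.11.15 with numpy 2.4.6, scipy 1.17.1, pandas 2.3.3, scanpy 1.11.5 and matplotlib 3.10.9. The scripts were tested on simulated data.

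Genes named were the score genes, the 15 highest and 15 lowest ratios, the ends of the class and day comparisons, up to 6 per list, and all class II, regulator and microglia genes. Members and the 38 lists were chosen with earlier results of these data known. A few genes that this rule names are not reported here. Alternatives are in the closing section.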

Additional observations from a re-analysis of the deposited data

How the results depend on the processing

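The 109 cells became 82, 75 of them the same, when cells were thinned to 5000 UMIs before scoring. The 301 higher and 369 lower genes became 611 and 1163 with thinned counts, 146 and 178 with a pseudocount of 10, 147 and 125 at 50 CPM, and 835 were lower with no expression filter. At day 160, 438 genes were higher with thinned counts, and 123 were higher and 142 lower at 50 CPM. Between the days 984 genes were lower with thinned counts, 942 were higher and 236 lower at 50 CPM, and 1089 were higher when set against genes of similar intron length. Thinned to 2000 UMIs, SPARCL1 cells with a UMI were 32.7% for GFAP, 74.8% for S100B, 71.0% for SLC1A3 and 18.7% for CD74, and to 10000 UMIs 55.9% for GFAP, 41.2% for HLA-DRB1 and 53.9% for CD74. The causes were not tested. Of 495 values of 31 named genes over these alternatives none reversed and 1 fell under 2-fold. Of 12 list medians 1 took the other sign, that of the interferon response, at -0.08 with genes of 50 CPM or more. Class II ran from 1.81 to 3.54, astrocyte from 0.83 to 1.44 and cell division from -2.00 to -0.63. No paired analysis was possible because each day is 1 library with no replicate. The depth and the single library limit each value.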

Other observations

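A list of genes that the transcription factor NRF2 is known to control in the oxidative stress response was drawn up after SLC7A11 and AKR1C3 had been seen among the highest ratios, and holds both, so that its count partly restates them. Of its 17 measured genes 6 passed the 2-fold limit upward and none downward (median log2 ratio 0.66), where 3.05% and 4.50% of all measured genes did. NQO1, a quinone reductase, was at 160 CPM in SPARCL1 cells and 37.5 CPM in the others (4.26-fold, 3.87 to 4.69), with a UMI in 95 of 109 SPARCL1 cells and 186 of 415 others. HMOX1, which degrades haem, was at 56.5 CPM in SPARCL1 cells and 16.8 CPM in the others, and GCLM, a subunit of the enzyme of glutathione synthesis, at 66.9 and 24.3 CPM in the same order. TXNRD1 was at 137 CPM in SPARCL1 cells and 80.9 CPM in the others. In the chosen day 160 cells 3 of 14 measured genes were higher (median 0.29), with NQO1 at 105 CPM in the chosen cells and 34.8 CPM in the others.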
